A study of Mus musculus with 12 samples.

Results

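Glycolysis, glycogen turnover and the entry of pyruvate into the mitochondrion were followed through 37 named genes, which were looked up by symbol among the 46983 genes of the count files and were all found. They hold the glucose transporter and hexokinases, phosphofructokinase and the enzymes that set its activator, the lower glycolytic enzymes, lactate dehydrogenase and the lactate transporters, the pyruvate dehydrogenase complex with its kinases, and the glycogen enzymes with the muscle fructose bisphosphatase. The measurements are 3′-seq read counts from the left ventricle (LV) of 12 mice aged 12 weeks on the FVB background, with 3 mice in each of 4 groups. The groups were Wt from non-diabetic pregnancy, Wt from diabetic pregnancy, Hif1a+/- from non-diabetic pregnancy and Hif1a+/- from diabetic pregnancy. Every mother was Wt and every father Hif1a+/-, diabetic mothers had been made diabetic with streptozotocin before mating, and the offspring themselves were not injected. The Hif1a+/- mice carry 1 null allele (Hif1a tm1jhu) in every cell, so the model is neither specific to cardiomyocytes nor a full loss. The mice of a group came from several litters, and the labels do not say which were littermates.

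HIF-1 is a transcription factor whose alpha subunit, encoded by Hif1a, is stabilised when oxygen is low. It binds short motifs in many glycolytic genes and raises their transcription, and it also raises pyruvate dehydrogenase kinase, which keeps pyruvate out of the mitochondrion. The adult heart burns mostly fatty acids, with glucose, lactate and its own glycogen as further fuels. The comparisons ask whether the loss of 1 Hif1a allele, exposure to maternal diabetes, or both, moved the transcripts of this pathway in the grown offspring.

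The letters that HIF-1 is known to bind, ACGTG or GCGTG, were looked for on both strands of the RefSeq promoter windows (GRCm38.p6, from 250 bases before to 50 after each transcript start). All 37 genes had at least 1 window, 57 in all. ACGTG was found in 25 of the 57 windows (43.9%), against 19.6% of all 32851 windows, and GCGTG in 29 (50.9%), against 32.4%. The motif CACGTG, which other factors also bind and which contains ACGTG, was in 12.3% of the members' windows and 7.15% of all. These motifs all contain CG. The full set of windows was not matched for CG content or limited to genes expressed in the heart, and the difference was not tested. Among the 10 members commonly described as HIF-1 targets (Slc2a1, Hk2, Pfkfb3, Pfkfb4, Aldoa, Pgk1, Eno1, Ldha, Slc16a3 and Pdk1), 7 had ACGTG and the other 3 had GCGTG only. The stretches below lie before the transcript start of 5 of these targets and of Pfkfb2, the member with the smallest p in the comparison of both exposures with neither. They are shown because Hif1a is the gene that was mutated, and the capitals mark 1 match to ACGTG or its reverse complement in each stretch. The stretches of Pgk1, Ldha and Slc16a3 hold a further separate match each, left in lower case. They lie at chr4:119108689-119108733 (+) for Slc2a1, chr2:11553965-11554009 (-) for Pfkfb3, chrX:106186930-106186974 (+) for Pgk1, chr7:46845736-46845780 (+) for Ldha, chr11:120949020-120949064 (+) for Slc16a3 and chr1:130715822-130715863 (-) for Pfkfb2.
Slc2a1: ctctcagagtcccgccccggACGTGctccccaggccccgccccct
Pfkfb3: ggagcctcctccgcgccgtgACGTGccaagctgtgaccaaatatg
Pgk1: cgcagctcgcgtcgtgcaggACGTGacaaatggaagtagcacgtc
Ldha: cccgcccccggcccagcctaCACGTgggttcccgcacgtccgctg
Slc16a3: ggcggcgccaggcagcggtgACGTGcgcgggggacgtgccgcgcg
Pfkfb2: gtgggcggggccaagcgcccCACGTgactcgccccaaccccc
In Ldha and Pfkfb2 the marked letters are part of CACGTG, which also holds an overlapping match that is not marked. These matches describe letters, and binding was not measured.

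The depth was between 16132442 and 39812939 counts per sample, and the members took between 2.41% and 2.74% of them. Values are given as CPM, counts scaled to a common library size after TMM normalization, which also corrects for composition. A transcript gives reads near its 3′ end whatever its length, so CPM were not divided by length. The 8 ventricular cardiomyocyte markers summed to between 86083 and 98714 CPM, and the 8 fast skeletal muscle markers to at most 3.20 CPM, so the defining markers of ventricular muscle were present and those of fast skeletal muscle were near 0. In bulk tissue, fewer cells of a type and less RNA per cell cannot be told apart. The library of Wt non-diabetic animal 25 stood apart with 7323 CPM of 5 red cell markers, against 185 to 1771 in the other 11. The labels give every mouse as female and the series text as male. Y-linked genes exceeded Xist in 11 libraries, and Xist exceeded them in 1, Hif1a+/- diabetic animal 72. Hif1a itself was at 55.7, 57.0 and 71.8 CPM in Wt non-diabetic, 47.9, 59.3 and 58.6 in Wt diabetic, 89.4, 78.8 and 88.9 in Hif1a+/- non-diabetic, and 70.5, 64.8 and 81.5 in Hif1a+/- diabetic samples. The Hif1a+/- samples were not lower, and the fitted log2 difference, averaged over both pregnancies, was 0.43 ± 0.087 (SE). The adjusted p was 0.60 with edgeR and 0.031 with DESeq2. Reads at the 3′ end can also come from a disrupted allele, so this value does not check the genotype.

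The transcripts of the pathway spanned a wide range of levels in the LV. A mean above 1000 CPM was reached by 10 members, 18 lay between 50 and 1000 CPM, and 9 lay under 50 CPM. Aldoa, the muscle aldolase that splits fructose bisphosphate, was the highest. It was at 4349.9, 3555 and 4257 CPM in Wt non-diabetic, 4728, 3715 and 4311 in Wt diabetic, 3469.8, 3752 and 3743 in Hif1a+/- non-diabetic, and 4191, 3681 and 3678 in Hif1a+/- diabetic samples. The brain aldolase Aldoc was the lowest, with 1.37, 0 and 0.327 CPM in Wt non-diabetic, 0.323, 0.170 and 0.229 in Wt diabetic, 0.156, 0.225 and 0.352 in Hif1a+/- non-diabetic, and 0.128, 0.132 and 0.309 in Hif1a+/- diabetic samples. Its count of 0 in animal 42 allows up to 0.139 CPM (3 counts, for counting error only). It did not pass the filter on low counts, and the other 36 members were tested. In further enzyme groups the counts were led by their muscle form. Enolase Eno3 made up 94.8% to 95.9% of Eno1 and Eno3 counts, and phosphoglycerate mutase Pgam2 95.5% to 97.7% of Pgam1 and Pgam2 counts. Phosphofructokinase Pfkm made up 75.9% to 82.4% of Pfkm, Pfkl and Pfkp counts. Of the lactate transporters, Slc16a1 made up 98.4% to 99.2% of Slc16a1 and Slc16a3 counts. Lactate dehydrogenase was mixed, with Ldha at 33.3% to 40.8% of Ldha and Ldhb counts, and so were hexokinase (Hk2 at 52.2% to 57.5% of Hk1 and Hk2) and glycogen phosphorylase (muscle Pygm at 57.9% to 63.3% of Pygm and Pygb).

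**Figure D1:**
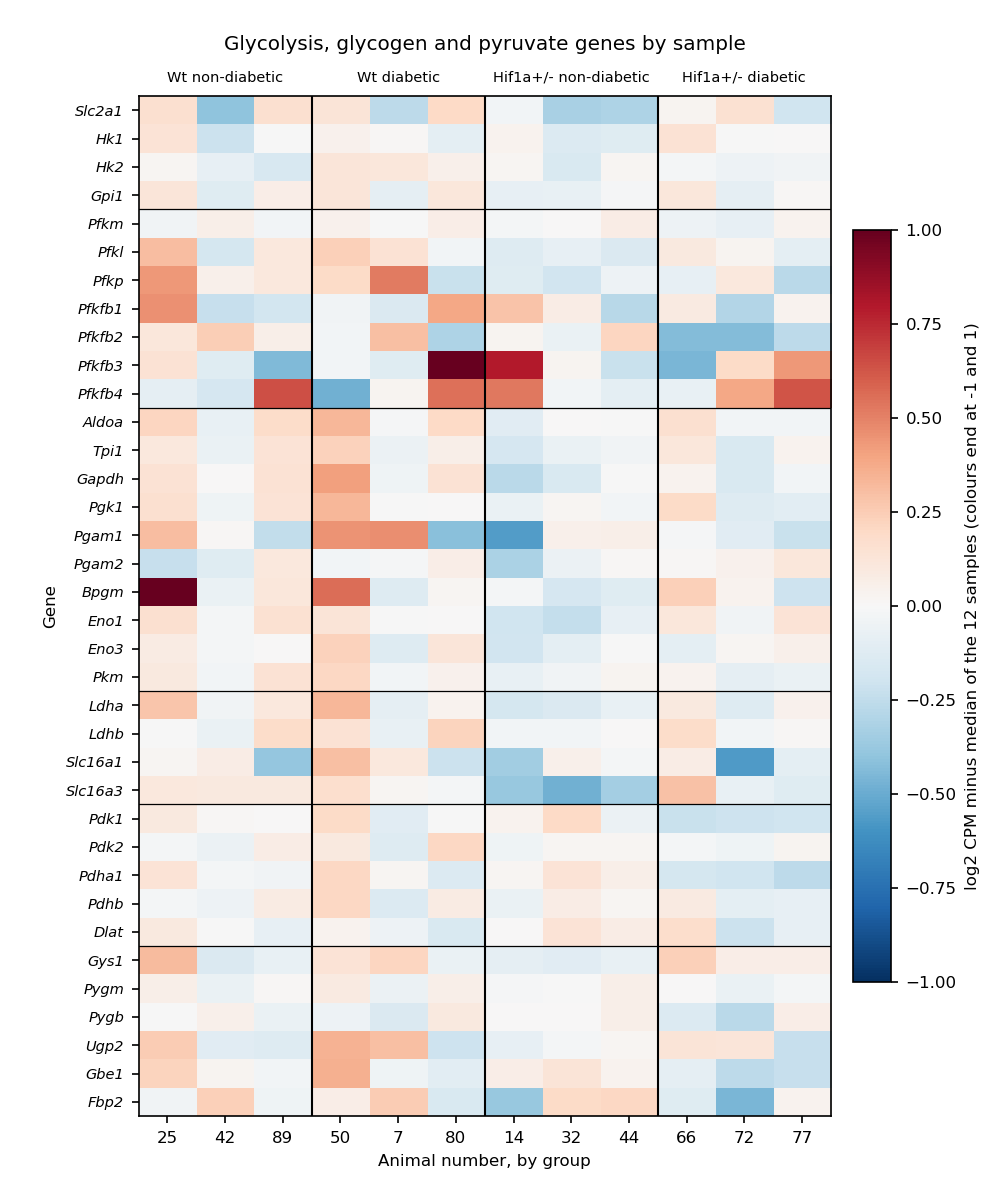
Each row is 1 of the 36 tested genes and each column 1 mouse, and the colour is log2 CPM minus the median of the 12 samples, with black lines between groups and between steps of the pathway. Most squares are pale, Bpgm is dark in Wt non-diabetic animal 25, Pfkfb3 in Wt diabetic animal 80, and Pfkfb2, Pdk1 and Pdha1 are blue in the 3 Hif1a+/- diabetic samples.

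The remaining members are given by their ranges over the 12 mice. Among the first steps, hexokinase Hk1 ranged from 305 to 392 CPM and glucose phosphate isomerase Gpi1 from 577 to 681 CPM. Among the phosphofructokinases, Pfkm ranged from 1262 to 1407 CPM and the liver form Pfkl from 211 to 295 CPM, while Pfkfb1, a further isoform of the enzyme that sets fructose 2,6-bisphosphate, ranged from 19.6 to 33.0 CPM. Pfkm had the narrowest of these ranges for its level. In lower glycolysis, triose phosphate isomerase Tpi1 ranged from 919 to 1214 CPM, Pgam1 from 20.6 to 41.8 CPM, Pgam2 from 747 to 1008 CPM, Eno3 from 1831 to 2459.6 CPM and pyruvate kinase Pkm from 1423 to 1748 CPM. Ldhb, the heart form of lactate dehydrogenase, ranged from 1559 to 1910.4 CPM, and Slc16a1 from 218 to 396 CPM. Among the glycogen genes, Pygm ranged from 1704 to 1899 CPM, Pygb from 989.8 to 1278 CPM, Gys1 from 175 to 240.4 CPM, Ugp2, which makes UDP-glucose, from 449 to 669.8 CPM, and Gbe1 from 69.7 to 107 CPM. The muscle fructose bisphosphatase Fbp2 was low, from 11.1 to 18.2 CPM.

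The uniqueness of these counts differs between members, because reads that align to several places were not counted. In GENCODE M21 transcripts, 27 of the 37 members had no stretch of 75 bases within 400 bases of their 3′ ends in common with another gene. In the 4 members above 20%, shared stretches made up 63.0% for Gapdh, which has 96 related pseudogenes, and 76.8% for Eno1. They made up 25.8% for Pfkp, which meets its neighbour Pitrm1, and 20.6% for Gpi1. Levels of these 4 genes are therefore uncertain. Smaller shares include 9.5% for Pdha1, in common with Map3k15. Eno3, Pfkm and Pfkl had no shared stretch, so the Eno3 and Pfkm shares given above may be too high. Within groups the samples lay close together, and the median SD of log2 CPM was 0.13 over the 36 members and 0.17 over all 14706 genes tested. Pfkm varied least (0.050) and Bpgm most (0.66).

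No member passed the threshold of an adjusted p of 0.1 in any of the 8 comparisons with edgeR's quasi-likelihood test, and neither did any other gene of the 14706 (0.0%). The smallest adjusted p of a member was 0.295, for Pfkfb2 in diabetic against non-diabetic Hif1a+/- mice. At an unadjusted p under 0.05, members numbered 5 of 36 in Hif1a+/- diabetic against Wt non-diabetic (13.9%, against 8.85% of all genes), 0 in Wt diabetic against Wt non-diabetic (against 2.78%) and 4 in Hif1a+/- non-diabetic against Wt non-diabetic (11.1%, against 0.959%). They numbered 6 in diabetic against non-diabetic Hif1a+/- (16.7%, against 12.0%) and 4 in Hif1a+/- diabetic against Wt diabetic (11.1%, against 5.35%). They numbered 1 for diabetes averaged over genotypes (2.78%, against 11.3%), 5 for genotype averaged over pregnancies (13.9%, against 2.69%) and 3 for the interaction (8.33%, against 2.52%). These counts did not pass adjustment. With DESeq2, which the authors used, 1 member passed in 1 comparison. This was Pfkfb2 in Hif1a+/- diabetic against Wt non-diabetic, where 0.453% of all genes passed. In the comparisons in which no member passed, DESeq2 passed 0.0148% of all genes in Wt diabetic against Wt non-diabetic, 0.00369% in Hif1a+/- non-diabetic against Wt non-diabetic, 1.44% in diabetic against non-diabetic Hif1a+/-, 0.155% in Hif1a+/- diabetic against Wt diabetic, 1.46% for diabetes, 0.0259% for genotype and 0.0% for the interaction. Limma-voom with sample weights passed no member outside the Hif1a+/- genotype, where it passed 0.0136% of all genes in Hif1a+/- diabetic against Wt non-diabetic, 0.0068% in Hif1a+/- diabetic against Wt diabetic, 0.265% for diabetes and 0.0% in the other 4 comparisons. Without a filter on low counts, edgeR passed Pfkfb2, Bpgm or Pfkfb3 in 7 comparisons. These were Pfkfb2 and Bpgm in Hif1a+/- diabetic against Wt non-diabetic (1.64% of all genes), Pfkfb3 and Bpgm in Wt diabetic against Wt non-diabetic (0.476%), Bpgm in Hif1a+/- non-diabetic against Wt non-diabetic (0.122%), Pfkfb2 in diabetic against non-diabetic Hif1a+/- (2.19%), Pfkfb2 and Bpgm for diabetes (2.19%), Bpgm for genotype (0.284%) and Bpgm for the interaction (0.288%), while none passed in Hif1a+/- diabetic against Wt diabetic (0.812%). For most members the 95% interval of the fold change lay within 1.5-fold in either direction. In Wt diabetic against Wt non-diabetic mice this held for 32 of 36 members and 9814 of all 14706 genes. In Hif1a+/- diabetic against Wt non-diabetic mice it held for 29 members and 9147 of all genes.

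**Figure D2:**
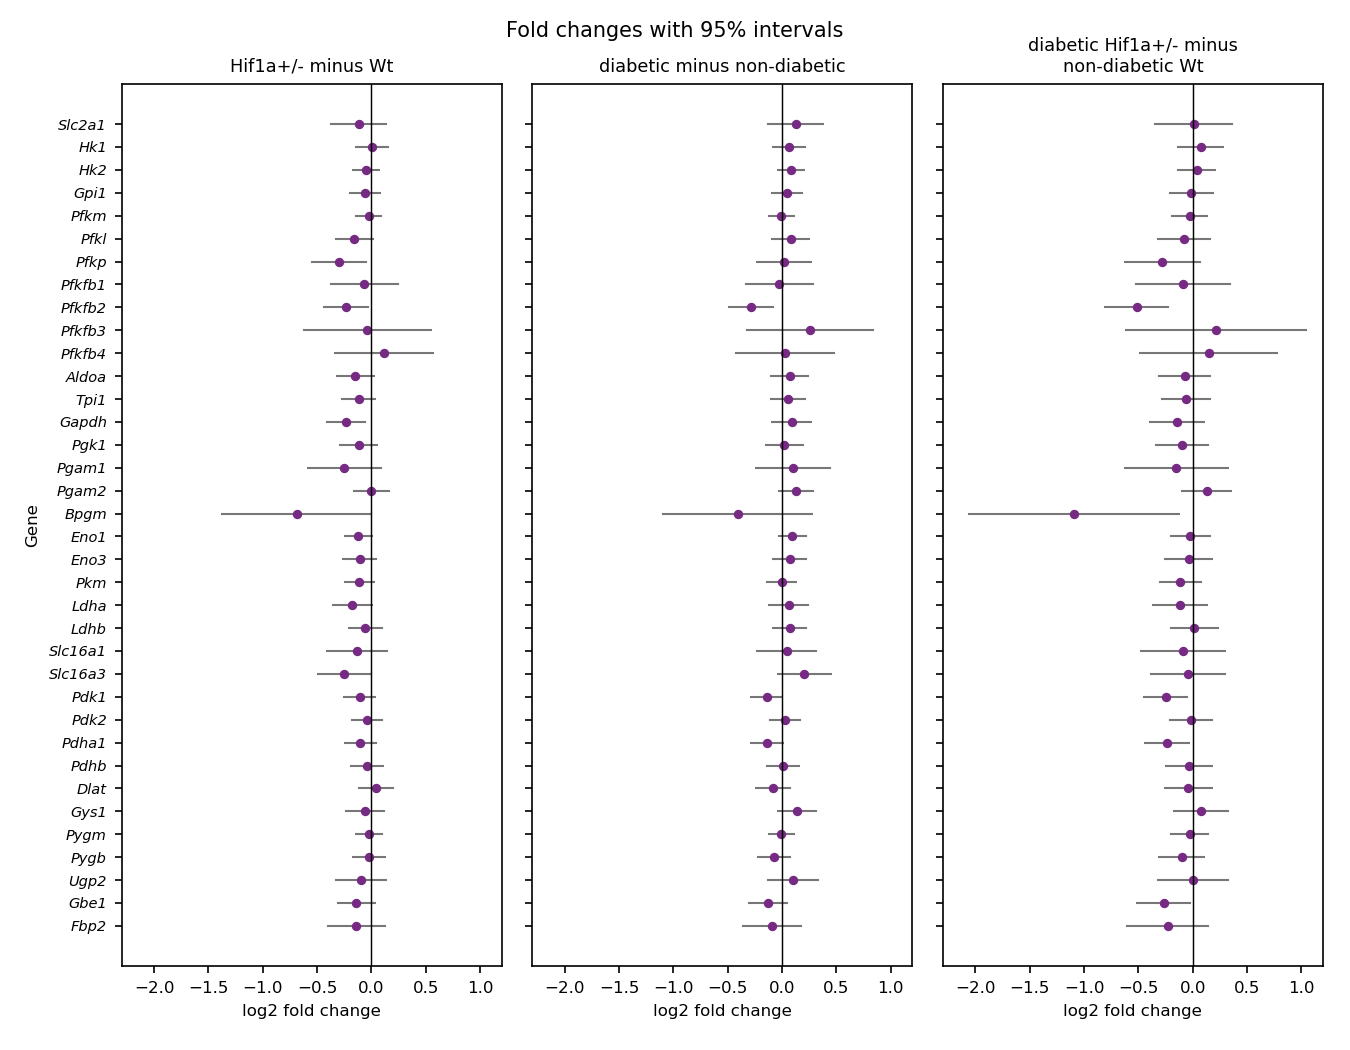
Points are log2 fold changes of the 36 tested genes and lines their 95% intervals, for Hif1a+/- minus Wt averaged over pregnancies, diabetic minus non-diabetic averaged over genotypes, and Hif1a+/- diabetic minus Wt non-diabetic. In the left panel 32 of the 36 points lie below 0, and in the right panel Pfkfb2 (-0.52) and Bpgm (-1.09) lie farthest to the left.

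The samples with both exposures, Hif1a+/- from diabetic pregnancy, had the lowest values of a kinase that makes the activator of phosphofructokinase and of genes at the pyruvate dehydrogenase step. Pfkfb2 encodes the heart isoform of the enzyme that makes and breaks down fructose 2,6-bisphosphate. It was at 61.0, 66.9 and 58.6 CPM in Wt non-diabetic, 55.3, 69.5 and 45.6 in Wt diabetic, 57.5, 53.9 and 65.5 in Hif1a+/- non-diabetic, and 41.7, 41.9 and 47.0 in Hif1a+/- diabetic samples. The Hif1a+/- diabetic samples lay below every non-diabetic sample and overlapped only animal 80 of the Wt diabetic group. Against Wt non-diabetic the log2 fold change was -0.52 (95% interval -0.80 to -0.23), with an adjusted p of 0.42 by edgeR and 0.086 by DESeq2. The DESeq2 call was lost in 7 of the 12 refits that each left out 1 sample, with adjusted p up to 0.70. Those 7 left out Wt non-diabetic animal 25 or 42, Hif1a+/- non-diabetic animal 14 or 32, or any of the Hif1a+/- diabetic animals.

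Pdk1, a kinase that switches off pyruvate dehydrogenase, was at 433, 408 and 405 CPM in Wt non-diabetic, 461, 374 and 404 in Wt diabetic, 414, 465 and 387 in Hif1a+/- non-diabetic, and 346, 351 and 351 in Hif1a+/- diabetic samples. Pdha1, the catalytic alpha subunit of that complex, was at 1167, 1052 and 1036 CPM in Wt non-diabetic, 1229.9, 1077 and 966 in Wt diabetic, 1081, 1169 and 1111 in Hif1a+/- non-diabetic, and 945, 925 and 889.7 in Hif1a+/- diabetic samples. Pdk1 and Pdha1 were the 2 members whose Hif1a+/- diabetic samples all lay below the 9 other samples, as did those of 1.09% of all genes tested, and no member's lay above (1.18% of all genes). Against Wt non-diabetic the log2 fold changes were -0.25 (95% interval -0.45 to -0.048) for Pdk1 and -0.24 (-0.44 to -0.034) for Pdha1, with adjusted p of 0.50 and 0.53 by edgeR. Without animal 72, whose Xist level stood apart, they were -0.25 and -0.24. Pdha1 is on the X chromosome, and animal 72 lay between the other 2 mice of its group. The remaining parts of the complex did not share this order: Pdhb, the beta subunit, ranged from 602 to 766 CPM and Dlat, the acetyltransferase core, from 458 to 599 CPM over the 12 samples, with overlapping groups. Pdk2, the more abundant of both kinases on the list, ranged from 644 to 812 CPM. Macrophage markers (4 of 4 detected) summed to between 164 and 269 CPM in the Hif1a+/- diabetic samples and between 88.2 and 199 CPM in the other 9. Smooth muscle and pericyte markers summed to 745 to 822 CPM in Hif1a+/- diabetic and 855 to 974 CPM in Hif1a+/- non-diabetic samples. They overlapped with both Wt groups. Fibroblast markers summed to 1175 to 1641 CPM in Hif1a+/- diabetic samples and overlapped with every other group. The part of these cell types in the values was not tested.

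**Figure D3:**
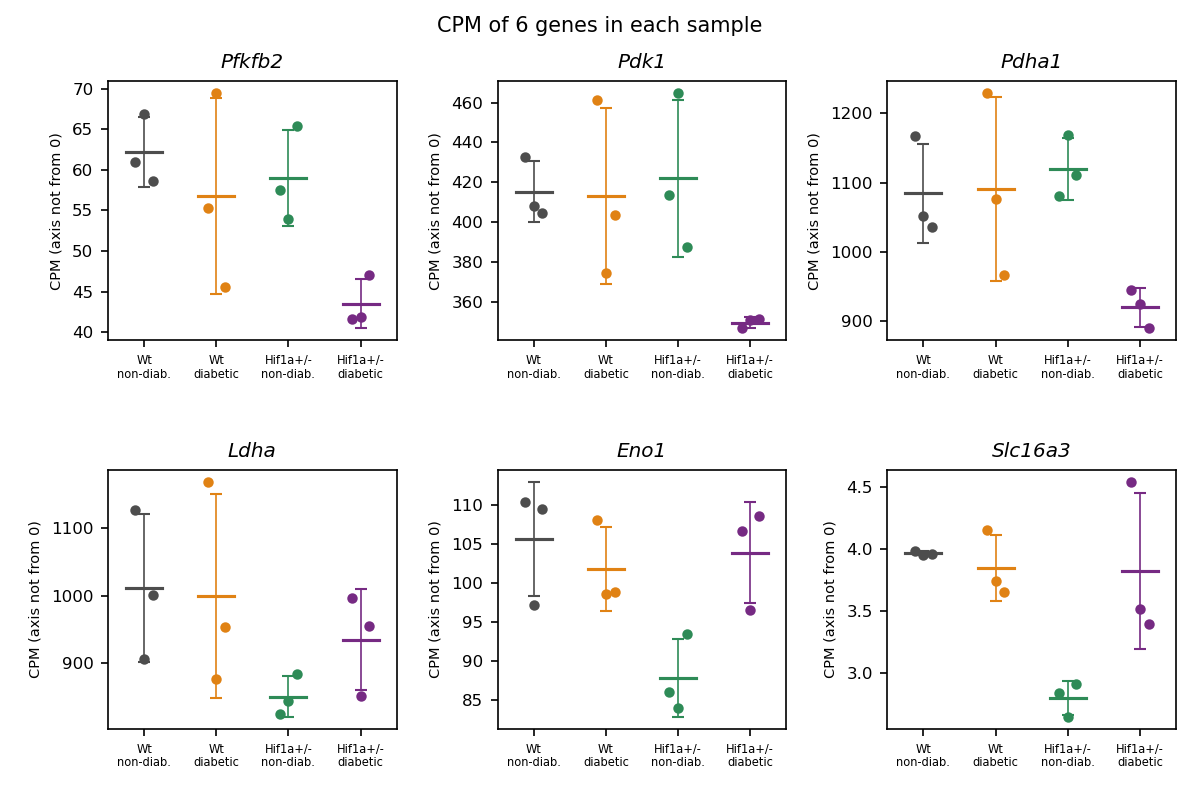
Points are CPM of single mice, horizontal bars group means and whiskers SD (n = 3), for 6 genes, with vertical axes that do not start at 0. The 3 Hif1a+/- diabetic samples are lowest for Pdk1 and Pdha1, and the 3 Hif1a+/- non-diabetic samples are lowest for Eno1 and Slc16a3.

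Within the Hif1a+/- genotype, diabetic against non-diabetic pregnancy separated the samples of 7 members. Pfkfb2, Pdk1, Pdha1 and Gbe1, the glycogen branching enzyme, were lower in all 3 diabetic samples, and 13.2% of all genes were lower in this way. Eno1, Slc16a3 and Gys1, the muscle glycogen synthase, were higher in all 3, as were 11.2% of all genes. The 4 lower and 3 higher members are 11.1% and 8.33% of the 36, near those backgrounds. The log2 fold changes were -0.44 for Pfkfb2, -0.28 for Pdha1, -0.27 for Pdk1, -0.27 for Gbe1, 0.24 for Eno1, 0.46 for Slc16a3 and 0.22 for Gys1, with adjusted p between 0.295 and 0.46 by edgeR. In Gbe1 the Hif1a+/- diabetic samples were at 78.6, 69.7 and 71.6 CPM against 87.7, 91.6 and 85.9 in Hif1a+/- non-diabetic samples. Against Wt non-diabetic mice, 4 members (Pfkfb2, Pdk1, Pdha1 and Gbe1) had every Hif1a+/- diabetic sample below every control sample, or 11.1% against 7.11% of all genes, and none lay above (7.47% of all genes). These comparisons share the Hif1a+/- diabetic samples and do not support each other. By step of the pathway, all 5 pyruvate dehydrogenase members had negative log2 fold changes within the Hif1a+/- genotype (median -0.11), while 9 of 10 lower glycolysis members (median 0.090) and 3 of 4 lactate members (median 0.11) had positive ones. Of all genes 49.0% were above 0 in this comparison, with a median of -0.0059. Limma-voom with sample weights passed 4 members within the Hif1a+/- genotype, namely Pfkfb2, Pdha1, Pdk1 and Eno1, where it passed 6.37% of all genes.

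In mice from non-diabetic pregnancy, the Hif1a+/- genotype went with lower values along the lower part of the pathway, and none of these differences passed the test. All 10 lower glycolysis members tested had negative log2 fold changes against Wt non-diabetic, with a median of -0.15, and so did all 4 lactate genes, with a median of -0.16. Over all 14706 genes the median was 0.0019, and 49.2% were below 0. The 10 members include Bpgm, whose value was -0.13 without Wt non-diabetic animal 25. They also include Gapdh and Eno1, whose levels are uncertain because of shared 3′ stretches. The lower glycolysis count was between 8 and 10 when 1 sample was left out. These values share the Hif1a+/- non-diabetic samples with the positive ones within the Hif1a+/- genotype given above, so they are not separate results. Of the 36 members, 5 (Pfkp, Gapdh, Eno1, Ldha and Slc16a3) had every Hif1a+/- sample below every Wt sample, or 13.9% against 2.26% of all genes, and none lay above (2.55% of all genes).

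Ldha, which converts pyruvate to lactate, was at 1127, 906 and 1001 CPM in Wt non-diabetic, 1169.7, 875 and 953 in Wt diabetic, 823, 842 and 883 in Hif1a+/- non-diabetic, and 996, 851 and 955 in Hif1a+/- diabetic samples. The non-diabetic groups did not overlap, and the diabetic groups did. The log2 fold change in non-diabetic pregnancy was -0.25 (95% interval -0.50 to -0.0020, adjusted p = 1.0 by edgeR) and in diabetic pregnancy -0.097 (-0.35 to 0.15, adjusted p = 0.89 by edgeR). Slc16a3, the transporter that exports lactate from glycolytic cells, was at 3.99, 3.96 and 3.96 CPM in Wt non-diabetic, 4.15, 3.75 and 3.66 in Wt diabetic, 2.84, 2.65 and 2.92 in Hif1a+/- non-diabetic, and 4.55, 3.52 and 3.40 in Hif1a+/- diabetic samples. The Hif1a+/- non-diabetic samples, with 73, 47 and 58 counts, were below the 9 others. No share of all genes with this order was computed. The log2 fold change of Slc16a3 against Wt non-diabetic was -0.50 (95% interval -0.85 to -0.15, adjusted p = 1.0 by edgeR). Eno1, the enolase of most tissues, was at 110.3, 97.1 and 109 CPM in Wt non-diabetic, 108, 98.6 and 98.8 in Wt diabetic, 85.9, 83.9 and 93.4 in Hif1a+/- non-diabetic, and 107, 96.4 and 109 in Hif1a+/- diabetic samples. Its Hif1a+/- non-diabetic samples were likewise below the 9 others, with a log2 fold change of -0.27 (95% interval -0.45 to -0.087) against Wt non-diabetic. Shared stretches made up 76.8% near the 3′ ends of Eno1, so its level is uncertain. The genotype by diabetes interaction had log2 values of 0.30 for Eno1, 0.50 for Slc16a3 and -0.29 for Pdha1, the 3 members of smallest p in that test, and each had an adjusted p of 1.0 by edgeR. Differences against Wt non-diabetic, differences within the Hif1a+/- genotype and the interaction share the Hif1a+/- non-diabetic samples and do not support each other.

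Gapdh, which oxidises glyceraldehyde 3-phosphate, was at 2217, 2009.9 and 2212 CPM in Wt non-diabetic, 2661, 1943 and 2218 in Wt diabetic, 1667, 1799 and 1998 in Hif1a+/- non-diabetic, and 2052, 1800.4 and 1970.3 in Hif1a+/- diabetic samples. Pfkp, the platelet phosphofructokinase, was at 118, 90.4 and 94.0 CPM in Wt non-diabetic, 99.5, 125 and 74.6 in Wt diabetic, 80.3, 76.3 and 84.1 in Hif1a+/- non-diabetic, and 82.4, 93.7 and 72.5 in Hif1a+/- diabetic samples. Averaged over pregnancies, the genotype log2 difference was -0.23 (95% interval -0.41 to -0.057) for Gapdh, -0.30 (-0.54 to -0.052) for Pfkp and -0.23 (-0.43 to -0.030) for Pfkfb2, each with an adjusted p of 1.0 by edgeR. The Pfkfb2 value was -0.15 without Wt diabetic animal 7. Gapdh and Pfkp are among the genes with shared 3′ ends. Over all members this comparison gave 32 values below 0 and 4 above (Hk1, Pfkfb4, Pgam2 and Dlat), with a median of -0.11, against 52.0% of all genes below 0 and a median of -0.0045. The count was between 30 and 34 of 36 when 1 sample was left out, with 30 without animal 25 and 31 without animal 72. The median was between -0.13 and -0.067 in these refits, the latter without Wt diabetic animal 50. No member passed the edgeR test here, and the members share libraries and are not independent of each other. In Hif1a+/- against Wt mice of diabetic pregnancy alone, 30 of 36 values were below 0, against 52.1% of all genes, and 25 when Wt diabetic animal 50 was left out. In that comparison Hk2, Pdk1 and Pdha1 had every Hif1a+/- sample below every Wt sample (3.62% of all genes), and none lay above (4.32% of all genes).

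Maternal diabetes in Wt mice went with small differences. Of 36 members, 26 were above 0 and 10 below, with a median log2 fold change of 0.029. Of all genes 51.6% were above 0, with a median of 0.0056. Hk2, the insulin-responsive hexokinase, was at 440.1, 410.0 and 387 CPM in Wt non-diabetic, 473, 469.9 and 448 in Wt diabetic, 439, 391 and 441 in Hif1a+/- non-diabetic, and 428, 418 and 424 in Hif1a+/- diabetic samples. It was the one member whose Wt diabetic samples all lay above the Wt non-diabetic ones (2.14% of all genes), and none lay below (3.40% of all genes). Its log2 fold change was 0.17 (95% interval -0.0018 to 0.34, adjusted p = 1.0 by edgeR). Pfkfb3, the inducible isoform of the same enzyme as Pfkfb2, was at 10.8, 8.96 and 7.15 CPM in Wt non-diabetic, 9.55, 8.96 and 25.2 in Wt diabetic, 16.8, 9.91 and 8.35 in Hif1a+/- non-diabetic, and 7.09, 11.1 and 13.1 in Hif1a+/- diabetic samples. Its log2 fold change of 0.69 in Wt was decided by 1 library and became 0.054 without animal 80. Averaged over both genotypes, 24 members were above 0 and 12 below after diabetic pregnancy, with a median of 0.045. Of all genes 49.2% were above 0 in this average, with a median of -0.0027. The 3 members of smallest p were Pfkfb2, with a log2 difference of -0.28 (95% interval -0.49 to -0.081, adjusted p = 0.33 by edgeR), Pdk1 with -0.14 (-0.28 to 0.0021) and Pdha1 with -0.14 (-0.28 to 0.0065), and these averages include the Hif1a+/- diabetic samples described above.

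The remaining HIF-1 targets showed overlapping groups in every pairwise comparison. Slc2a1, the basal glucose transporter, was at 24.2, 16.4 and 24.2 CPM in Wt non-diabetic, 23.7, 18.1 and 24.9 in Wt diabetic, 21.3, 17.3 and 17.5 in Hif1a+/- non-diabetic, and 22.1, 24.2 and 18.9 in Hif1a+/- diabetic samples. Pgk1, which makes the first ATP of glycolysis, was at 252, 218 and 247 CPM in Wt non-diabetic, 283, 225 and 225 in Wt diabetic, 215, 228 and 221 in Hif1a+/- non-diabetic, and 257, 206 and 209 in Hif1a+/- diabetic samples. Pfkfb4, a further isoform of the fructose 2,6-bisphosphate enzyme, was at 3.99, 3.77 and 6.62 CPM in Wt non-diabetic, 3.04, 4.32 and 6.23 in Wt diabetic, 6.12, 4.17 and 3.97 in Hif1a+/- non-diabetic, and 4.03, 5.55 and 6.58 in Hif1a+/- diabetic samples. Averaged over pregnancies, the genotype log2 difference was -0.12 (95% interval -0.37 to 0.14) for Slc2a1, -0.12 (-0.29 to 0.051) for Pgk1, -0.15 (-0.31 to 0.022) for Aldoa and 0.12 (-0.33 to 0.57) for Pfkfb4. All 4 intervals lie within 1.5-fold in either direction.

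Bpgm was highest in the libraries with the most red cell transcripts. It encodes the enzyme that makes 2,3-bisphosphoglycerate, which lowers the oxygen affinity of haemoglobin, and it is abundant in red cells. It was at 114, 23.7 and 26.9 CPM in Wt non-diabetic, 36.7, 22.7 and 25.2 in Wt diabetic, 24.5, 22.1 and 22.9 in Hif1a+/- non-diabetic, and 29.3, 25.5 and 21.6 in Hif1a+/- diabetic samples. The highest sample, animal 25, and the next, animal 50, were also the highest for the 5 red cell markers, with 7323 and 1771 CPM. Over the 12 samples, log2 Bpgm and the log2 sum of these markers had a Pearson r of 0.94 (permutation p = 3e-05) and a Spearman rho of 0.86 (permutation p = 0.00060). Without animals 25 and 50 r was 0.77 (n = 10, permutation p = 0.0092). This was the only relation computed, it was chosen after the values had been seen, and groups of 3 are too small for it. The log2 fold change of Bpgm in Hif1a+/- non-diabetic against Wt non-diabetic was -1.23, and -0.13 without animal 25.

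**Figure D4:**
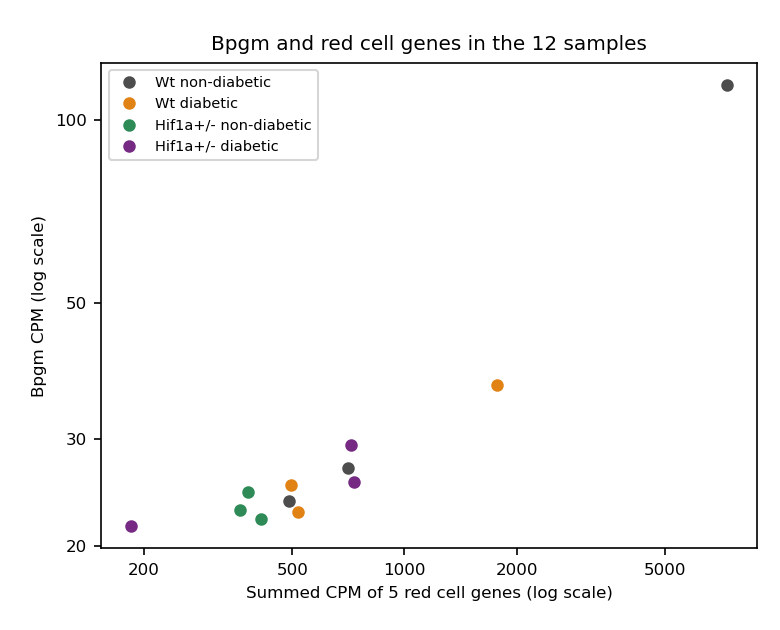
Each point is 1 mouse, coloured by group, with the summed CPM of 5 red cell genes on a log axis and the CPM of Bpgm on a log axis. The point at the upper right is Wt non-diabetic animal 25 (7323 and 114 CPM), and the next is Wt diabetic animal 50 (1771 and 36.7 CPM).

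The balance between forms of an enzyme was tested as the share of 1 isozyme in the counts of its family, which needs no library normalization. Of 20 tests (10 families by 2 factors, exact permutation of labels within the other factor, two-sided), none had an adjusted p under 0.1. The smallest p was 0.06 (adjusted p = 0.72, exact permutation test), for Pdk2 in Pdk1 and Pdk2 counts, whose share was 2.59 percentage points higher after diabetic pregnancy. It was 63.0% ± 1.60 (SD, n = 3) in Wt non-diabetic, 64.1% ± 2.44 in Wt diabetic, 62.6% ± 2.16 in Hif1a+/- non-diabetic and 66.7% ± 0.54 in Hif1a+/- diabetic samples. The test can reach 0.005 at best. Over 20 tests, 1 share at that p alone would have an adjusted p of 0.1, which is not under the threshold. No share could therefore pass by itself, and the lack of a call does not show an unchanged balance. The Ldha share was 1.89 percentage points lower in Hif1a+/- mice (exact permutation p = 0.18, adjusted 0.72), and the Pfkfb2 share ranged from 42.0% to 67.1% of the counts of Pfkfb1 to Pfkfb4.

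**Figure D5:**
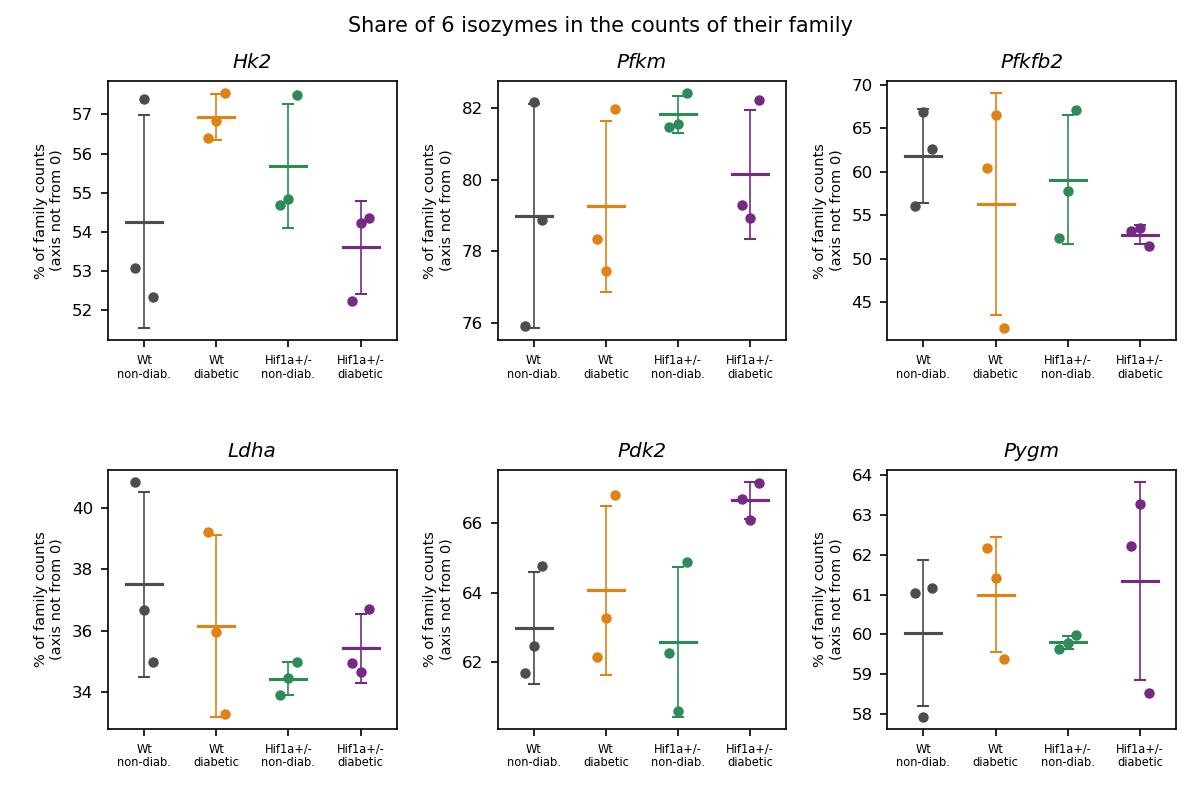
Points are single mice, bars group means and whiskers SD (n = 3) of the share of 6 isozymes in the counts of their family, in percent, with vertical axes that do not start at 0. The Pdk2 share is highest in the Hif1a+/- diabetic samples (66.1% to 67.2%), a range that overlaps with the Wt diabetic samples only.

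A wider list of 54 genes of glucose uptake, glycolysis, pyruvate and glycogen metabolism gave 53 matches, of which 48 were tested. No gene of it passed the edgeR test in any comparison, and with DESeq2 1 passed, Gaa, the lysosomal enzyme that degrades glycogen, for diabetes averaged over genotypes (1.46% of all genes). Gaa was at 207, 181 and 197 CPM in Wt non-diabetic, 206, 233 and 216 in Wt diabetic, 197, 179.8 and 193 in Hif1a+/- non-diabetic, and 224, 232 and 208 in Hif1a+/- diabetic samples. Its log2 difference was 0.19 ± 0.058 (SE) with edgeR (adjusted p = 0.29) and 0.20 with DESeq2 (adjusted p = 0.090). Mpc1, a subunit of the mitochondrial pyruvate carrier, was at 92.7, 82.3 and 85.7 CPM in Wt non-diabetic, 96.3, 84.6 and 86.0 in Wt diabetic, 78.6, 85.7 and 85.6 in Hif1a+/- non-diabetic, and 76.4, 73.6 and 70.7 in Hif1a+/- diabetic samples. The Hif1a+/- diabetic samples were the lowest, an order found in 1.09% of all genes tested. The log2 fold change was -0.24 (95% interval -0.42 to -0.065, adjusted p = 0.48 by edgeR) against Wt non-diabetic. Phkb, a regulatory subunit of phosphorylase kinase, had a log2 fold change of -0.33 in diabetic against non-diabetic Hif1a+/- mice (adjusted p = 0.30 by edgeR), and Gyg, the primer of glycogen synthesis, one of 0.22 in Hif1a+/- diabetic against Wt non-diabetic mice (adjusted p = 0.50 by edgeR). Others among the 3 smallest p of this list in a comparison were Ppp1r3b, Slc2a4, Me1, Pdk3, Gpd2 and Tigar, whose adjusted p by edgeR lay between 0.37 and 1.0 in those comparisons.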

How the data were processed

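For 12 mice, LV RNA was made into 3′-seq libraries and read over 75 bases. Reads were trimmed, filtered of ribosomal and mitochondrial sequence and placed on GRCm38 (STAR 2.5.2b, GENCODE M8) by the authors, whose counting used htseq-count and only unique placements. Counts, as deposited, are whole and not normalized, and their 5 tally lines were left out. The deposited normalized values were not used. Groups came from the labels and animal numbers served as replicate names.

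Symbols came from GENCODE M21. The main test was edgeR 4.0.16 (R 4.3.3), quasi-likelihood, TMM, filterByExpr (14706 of 27093 genes), 12 samples in 1 fit, Benjamini-Hochberg over all genes tested, threshold 0.1. "Below every" or "above every" means that ranges of samples did not overlap. DESeq2 1.42.0, limma-voom 3.58.1, other normalization, filters and thresholds, and leaving out each sample were alternatives. The functions were tested on simulated data. Samples of a group differed by more than counting noise (chi-square per degree of freedom 5.35 to 43.3), so each was counted as 1 sample. The labels do not name litters, so each mouse was treated as independent, and the p-values rest on the spread between these mice. Diabetes was induced in the mothers, so any littermates within a group would not be independent for that factor.

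Values in every sample are given for 10 HIF-1 targets, the 3 members of smallest p in each comparison, and the highest and lowest member. From a wider pathway list, genes among the 3 smallest p are named, and some of them are not reported here. Members and lists were chosen with earlier results of these data known. Counts of members below 0 and DESeq2 fits without 1 sample were added after seeing the data.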

Additional observations from a re-analysis of the deposited data

How the results depend on the processing

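The edgeR count of 0 members stayed 0 in all 8 comparisons with DESeq2 size factors, at least 10 counts per gene and sample, a robust fit, a threshold of 0.05, only the groups compared (5 comparisons) and each sample left out. With DESeq2 1 member passed in Hif1a+/- diabetic against Wt non-diabetic (68 genes in all), 0 to 1 when a sample was left out. Limma-voom with sample weights passed 4 members within the Hif1a+/- genotype (937 genes in all). Without a filter on low counts, edgeR passed 2 members in Hif1a+/- diabetic against Wt non-diabetic (445 genes), 2 in Wt diabetic against Wt non-diabetic (129), 1 in Hif1a+/- non-diabetic against Wt non-diabetic (33), 1 in diabetic against non-diabetic Hif1a+/- (592), 2 for diabetes over genotypes (593), 1 for genotype over pregnancies (77) and 1 for the interaction (78). Over all genes, edgeR's count within the Hif1a+/- genotype was 0, and 101 with only those groups in the fit, and at most 38 genes passed in any comparison with 1 sample left out (without Hif1a+/- diabetic animal 72). The cause of these differences was not tested. For the 3 members of smallest p in each comparison, 24 fold changes in all, 447 refits were made, of which 436 kept direction and side of the threshold, 10 passed it and 1 reversed. That was Bpgm in Wt diabetic against Wt non-diabetic, -0.95, which ranged from -1.31 to 0.16 with 1 sample left out and was 0.16 without animal 25. No isozyme share passed under any alternative. With all samples or with 1 left out, 1 share alone cannot pass, so these refits could not have changed that. No paired analysis was possible because the animal numbers differ between groups and the labels' replicate number is the same for all samples of a group. With 3 mice per group, fold changes under about 1.2-fold (median 95% half-width 0.24 on the log2 scale for members in comparisons of 2 groups) are not separable from 0.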

Other observations

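Pdk4, the pyruvate dehydrogenase kinase that fasting and fatty acids are known to raise, is not among the 37 genes, and it was chosen here after its values were seen. It was at 605, 1199 and 479 CPM in Wt non-diabetic, 229.8, 1609 and 216 in Wt diabetic, 409, 1532 and 907 in Hif1a+/- non-diabetic, and 1570.4, 479 and 219 in Hif1a+/- diabetic samples. Every group held both a low and a high sample, and the log2 fold change of Hif1a+/- diabetic against Wt non-diabetic was -0.0090 ± 0.79 (SE). The members Pdk1 and Pdk2 ranged from 346 to 465 and from 644 to 812 CPM in the same samples.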
